A study of Mus musculus with 28 samples.

Results

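Among 8 single neurons taken from hippocampal slices, 29 of 28661 counted features behaved as on-off features: each was abundant in at least 3 neurons and had few or no reads in at least 3 others. The members were chosen by their measured values in these 8 libraries, so those values are a description. A member had 100 counts-per-million or more (CPM, scaled to the reads assigned to any feature of that library; called on here) in at least 3 libraries, and less than 1 CPM (called off) in at least 3 others. Of the 28661 features, 2606 had 100 CPM or more in at least 3 of the 8 neurons, and the members were 1.11% of them. The other 2577 are the set against which the members are described below. On the same 8 neurons 2243 of the 2606 (86.1%) were off in no library, 269 (10.3%) in 1, 65 (2.49%) in 2, 24 in 3 and 5 in 4.

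The study compared ways of collecting RNA from single C57BL/6 mouse neurons. In TIVA, transcriptome in vivo analysis, a tag that enters living cells is opened by laser light in 1 chosen cell and then holds that cell's polyadenylated RNA for capture. The other single neurons were drawn into a glass pipette. The 8 neurons that chose the members were from hippocampal tissue, 5 collected with TIVA and 3 with a pipette, and all tissue in the series, bulk and cortical included, came from slices of mice 8 to 10 days old. The groups that the choice did not use were hippocampal tissue in bulk (3 libraries), hippocampal neurons in culture (3 pipette, 4 TIVA), cortical neurons in culture (4 pipette, 4 TIVA) and cortical neurons in tissue (2 TIVA). Cultures had stood for 7 to 9 days on coverslips. TIVA tag was given to cultures at 10 µM for 15 min with the laser at 30%, and to slices at 30 µM for 90 min with the laser at 80%, and the imaged field around the opened cell was aspirated, per the labels' protocols. All RNA was amplified in 3 rounds of linear in vitro transcription. The labels name no genetic change and no drug for any group, and no animal, culture or batch for any library. The protocol text given with the hippocampal tissue pipette neurons describes TIVA capture, and that of the cortical tissue neurons mentions the hippocampal CA1 field. The source names were followed.

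A single neuron holds few copies of most messenger RNAs. Transcription in single cells runs in bursts, so that the copy number of a transcript can differ widely between cells of one kind at a given moment. Some transcripts can also be lost from a single-cell library when few molecules enter the first amplification, and a bulk sample averages over many cells. In bulk samples, fewer cells of a type and less RNA per cell cannot be told apart. The features carry UCSC known-gene identifiers, and 0 of 55419 single identifiers could be matched to a gene symbol, so the roles of the members are not given and the labelled cell type was not checked against markers.

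Assigned reads, in M (mega, as in CPM), were 24.1 to 33.4 M in the hippocampal tissue TIVA neurons and 6.64 to 11.6 M in the pipette neurons of that tissue, against 5.30 to 59.0 M over all 28 libraries. A library had 7213 to 9487 features at 1 CPM or more in the 8 hippocampal tissue neurons, 13209 to 14012 in bulk tissue, and 6487 and 4822 in the cortical tissue neurons. A count of 0 allows up to 3 reads, worth 0.0508 to 0.567 CPM, which lies below the off limit in every library. These limits cover counting error only, since amplified reads are not independent molecules. Each single neuron is 1 cell, so no p-value is given, and SDs are over libraries. The 29 members together held 0.172% to 0.285% of the reads of a hippocampal tissue neuron.

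In the 8 neurons the members took 232 values, of which 91 were on, 92 off and 49 between. The on values had a median of 156 CPM, reached 422 CPM and rested on 669 reads or more. The off values had a median of 0.181 CPM, and 72 of the 92 still held reads, 4 at the median and 23 at most, while 20 were at 0 reads. Off therefore meant few reads more often than none, and no feature met the criterion when off was read as 0 reads. Of the 29 members 25 were on in 3 neurons and 4 in 4.

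The on states were spread over all 8 neurons. The TIVA neurons 1 to 5 had 12, 12, 13, 10 and 9 members on, and 6, 11, 5, 15 and 17 members off. The pipette neurons 1 to 3 had 8, 14 and 13 on, and 14, 13 and 11 off. Within the TIVA neurons, the 2 with the most members off, neurons 4 and 5, also had the fewest features at 1 CPM or more, 7674 and 7374, and TIVA neuron 3, with the fewest off, had the most of both features and reads. The part of library complexity in the off states was not tested.

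The 29 members had 28 distinct patterns of on, between and off over the neurons that chose them. Such patterns can differ in a single neuron even among members that vary together. The count therefore cannot decide whether members switched together, which was not tested. Of the 28 pairs of neurons, TIVA neuron 3 and pipette neuron 1 shared 0 members that were on, and pipette neurons 2 and 3 shared 9, the most. The median pair shared 3 on members and 3.5 off members, and had 9.5 members on in one neuron and off in the other, with a range of 5 to 19. The most opposed pair was TIVA neuron 4 and pipette neuron 3.

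**Figure D1:**
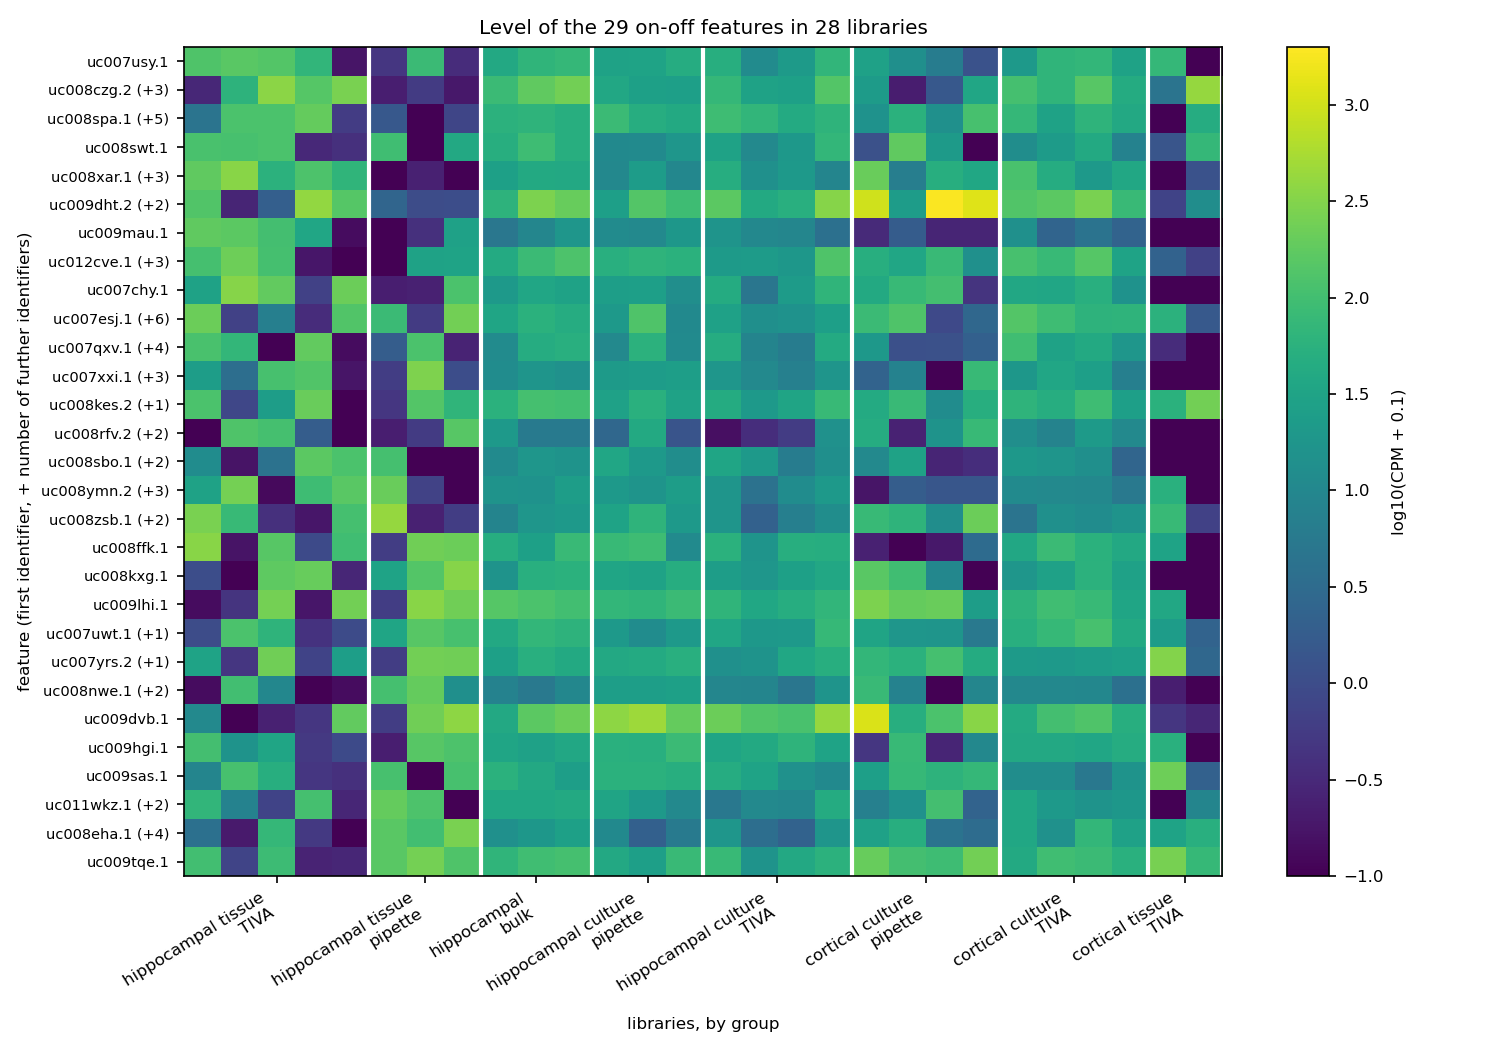
Level of each of the 29 members (rows, named by the first identifier, with the number of further identifiers) in each of 28 libraries (columns, by group), as log10(CPM + 0.1). The 8 hippocampal tissue columns on the left alternate between dark and bright because they chose the members. The bulk and hippocampal culture columns are nearly even, and dark cells return in the cortical culture pipette and cortical tissue columns.

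Of the 29 members 26 were on in at least 1 and off in at least 1 of the 5 TIVA neurons, 16 did so among the 3 pipette neurons, and 19 were on by both means of collection. The choice of members, with 3 on and 3 off among 5 TIVA and 3 pipette neurons, largely fixes these counts. There were 4 members on in at least 3 neurons of one method and in none of the other, with 3 or more of those off. In the pipette neurons uc009tqe.1 was on throughout, at 159, 253 and 129 CPM, and it stood at 99.6, 0.660, 87.2, 0.166 and 0.189 CPM in TIVA neurons 1 to 5. Its TIVA values thus fell into a pair just under the on limit and 3 off values. A like split was seen for uc008eha.1:uc008ehc.1:uc012bak.1:uc008ehb.1:uc008ehd.1, at 159, 101 and 274 CPM with the pipette and 3.80, 0.104, 73.1, 0.414 and 0 CPM with TIVA.

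The opposite division was found for 2 members, chosen like the last one after their values were seen. The level of uc008czg.2:uc008czd.2:uc012avi.1:uc008czf.2 was 0.202, 60.8, 350.2, 147 and 268 CPM in the TIVA neurons and 0.128, 0.452 and 0.0859 CPM in the pipette neurons. That of uc008xar.1:uc008xas.2:uc012dur.1:uc012duq.1 was 179, 344, 58.7, 123 and 63.8 CPM in the TIVA neurons and 0, 0.151 and 0 CPM in the pipette neurons. For the last of these the groups did not overlap, whereas TIVA neuron 1 stood with the pipette neurons for the other. The off state is part of what chose the members, so they are a description.

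The member with the highest mean over the 8 neurons was uc009lhi.1. It read 0.0404, 0.347, 254, 0.0829 and 240.3 CPM in TIVA neurons 1 to 5, and 0.511, 345 and 235 CPM in pipette neurons 1 to 3. It had no value between 1 and 100 CPM. The next, uc008ffk.1, read 343, 0.0695, 152, 0.829 and 95.4 CPM in the TIVA neurons and 0.511, 238 and 218 CPM in the pipette neurons. Both were high in pipette neurons 2 and 3 and off in pipette neuron 1, and they differed in TIVA neuron 1, where only uc008ffk.1 was on, and in TIVA neuron 5, where only uc009lhi.1 was.

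Some members lay close to the limits. The value that ranked 3 from the top for uc008nwe.1:uc008nwg.2:uc008nwf.2 was 101 CPM, and the value that ranked 3 from the bottom for uc009dht.2:uc009dhu.2:uc009dhv.2 was 0.945 CPM. Just outside were uc007nfm.1:uc007nfl.1, at 99.9 CPM for rank 3 from the top, and uc008vaz.1:uc012dme.1:uc012dmh.1, at 1.09 CPM for rank 3 from the bottom. The number of members depended on the limits and the libraries: it was 196 with an on limit of 50 CPM and 3 with one of 200 CPM. With each neuron left out in turn it was 15, 9, 17, 8 and 6 without TIVA neurons 1 to 5, and 11, 8 and 11 without pipette neurons 1 to 3. A list that asks for 3 on and 3 off among 7 neurons can only shrink, and all members of those shorter lists were among the 29.

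In bulk hippocampal tissue every member was present. All 29 reached 1 CPM in each of the 3 libraries (100% ± 0, SD, n = 3), against a background of 43.9% of all features and 2574 of the 2577 other features (99.9%). The members' median was 33.9, 45.2 and 46.0 CPM in the 3 libraries, and that of the other features 101, 142 and 148 CPM, so that the members stood at 0.312 to 0.334 of the level of features that met the on criterion alone. The other features are thus not matched to the members for level. Differences in detection between the 2 sets can include this, which was not tested. None of the 29 was on in one bulk library and off in another, and the background of such features was 0.00349%. The bulk value of each of the 29 lay between its lowest and highest value in the hippocampal tissue neurons. The choice of members largely fixes this, since it gave each a range from below 1 CPM to 100 CPM or more. It therefore says little about bulk tissue.

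Bulk levels among the members covered a wide range. Of the members with at most 3 joined identifiers, the most abundant in bulk were uc009dht.2:uc009dhu.2:uc009dhv.2, at 59.3, 278 and 200 CPM, and uc009dvb.1, at 39.2, 163 and 215 CPM. Both differed more between the 3 bulk libraries than the typical member, bulk library 1 being the lowest for each. The least abundant of them were uc008nwe.1:uc008nwg.2:uc008nwf.2, at 7.98, 5.40 and 9.60 CPM, and uc008rfv.2:uc008rfw.2:uc008rfx.2, at 20.1, 5.62 and 5.65 CPM.

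Cultured hippocampal neurons, although single cells, held nearly all members in every neuron. With the pipette, all 29 members reached 1 CPM in each of 3 neurons (background 39.7%), and with TIVA 28 of 29 did so in each of 4 neurons (background 35.0%). The mean was 97.4% ± 1.72 (SD, n = 4) of members per TIVA neuron, and the other features had 2571 (99.8%) and 2562 (99.4%) of 2577 present throughout. The exception was uc008rfv.2:uc008rfw.2:uc008rfx.2, at 0.0492, 0.267, 0.477 and 15.0 CPM in the 4 TIVA neurons and 2.63, 41.3 and 1.22 CPM in the 3 pipette neurons. No member was on in one and off in another neuron of either group, where the background was 0.0628% for the pipette and 0.00698% for TIVA. The other features also had 0 in both groups, so this does not set the members apart. Few members were on there at all, 3.45% to 10.3% per pipette neuron and 3.45% to 13.8% per TIVA neuron. The cultured hippocampal libraries also had more features at 1 CPM or more, 11376 to 15702 against 7213 to 9487 in the hippocampal tissue neurons. The part of this in the members' presence was not tested.

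The members' median was 30.3, 31.3 and 25.4 CPM in the cultured hippocampal pipette neurons and 33.6, 15.9, 20.0 and 44.7 CPM in the TIVA neurons. These medians overlapped between the 2 ways of collection. The pipette medians lay below the 3 bulk medians, and 1 of the 4 TIVA medians lay within their range. Against the other features the members stood at 0.176 to 0.229 of the median level with the pipette and at 0.293 to 0.378 with TIVA. The member uc009lhi.1, which was either off or above 200 CPM in the hippocampal tissue neurons, read 69.3, 65.9 and 84.1 CPM in the cultured pipette neurons and 64.4, 35.8, 47.4 and 66.9 CPM in the cultured TIVA neurons. In hippocampal culture all 7 values fell into the range that it did not take in hippocampal tissue neurons.

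Cultured cortical neurons differed by the way of collection. With TIVA all 29 members reached 1 CPM in each of 4 neurons (background 37.5%, other features 99.5%), and 0 were on in one neuron and off in another (background 0.00349%). With the pipette, 75.9% to 89.7% of members did so per neuron (mean 83.6% ± 5.89, SD, n = 4), and 16 of 29 (55.2%) were present in all 4, against a background of 22.3% and 2382 of 2577 (92.4%) of the other features. The 4 pipette neurons had 4, 3, 7 and 5 members off, and the 4 TIVA neurons none. The pipette libraries also had fewer features at 1 CPM or more, 9230 to 11280 against 12202 to 15109, and the part of this in the difference was not tested. In the pipette neurons the members' median was 0.0699 to 0.251 of that of the other features. The part of this lower level in their lower detection was not tested either.

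Of the 29 members 4 (13.8%) were on in one cultured cortical pipette neuron and off in another, where the background was 2.26% and the other features had 3.49%. One of them, uc008kxg.1, read 156, 94.9, 9.53 and 0 CPM in pipette neurons 1 to 4, and another, uc008swt.1, read 1.06, 175, 21.8 and 0 CPM. The other two were uc007chy.1, at 40.5, 80.0, 105 and 0.347 CPM, and uc007esj.1:uc007esl.1:uc007esk.1:uc007esm.1:uc011xcb.1:uc011xca.1:uc007esn.1, at 86.2, 132, 0.802 and 2.60 CPM. Pipette neuron 4 was the off neuron for 3 of the 4, and without it 1 member (3.45%) remained. The share was 6.90% without pipette neuron 2 or 3, and 10.3% without pipette neuron 1. Counting error alone gives 4 of 29 an interval of 3.89% to 31.7% (exact binomial, 95%), whose lower end is near the 3.49% of the other features. With members chosen anew on other scales the share was 4.0% after thinning to equal depth, 7.5% with TMM and 7.69% with DESeq2 size factors. It was 18.6% with CPM outside the 50 most abundant features. With an on limit of 50 CPM, which also loosens what counts as on, it was 25.0%. The share over all features is not given for these settings.

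In the cultured cortical pipette neurons uc008ffk.1, on in 4 of the 8 hippocampal tissue neurons, read 0.152, 0, 0.0891 and 3.12 CPM. In the cultured cortical TIVA neurons it read 37.8, 85.6, 55.0 and 39.9 CPM, so the 2 groups did not overlap. The reverse ordering of methods was seen for uc009dht.2:uc009dhu.2:uc009dhv.2, at 993, 24.0, 1892 and 1218 CPM with the pipette and 135, 162, 274 and 83.2 CPM with TIVA, where pipette neuron 2 fell below all TIVA neurons. Another member, uc009mau.1, was near the off limit in most cultured cortical neurons: 0.228, 1.71, 0.178 and 0.174 CPM with the pipette and 14.1, 2.35, 4.27 and 2.22 CPM with TIVA. Its highest value in any of the 15 cultured neurons was 18.7 CPM, whereas it reached 177 CPM in hippocampal tissue TIVA neuron 1.

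Over all 15 cultured neurons, 16 of the 29 members (55.2%) were present in every one, as were 2372 of the 2577 other features (92.0%) and 20.9% of all features. The members with the highest minimum in culture were uc009dvb.1 and uc009lhi.1. The lowest of 15 values was 41.9 CPM for uc009dvb.1 and 24.9 CPM for uc009lhi.1. In hippocampal tissue the former was on in 3 neurons, at 188 CPM in TIVA neuron 5 and at 232 and 374 CPM in pipette neurons 2 and 3, and at 10.5 CPM or less in the other five. A member that was off in 4 of 8 tissue neurons was thus present at 41.9 CPM or more in every cultured neuron.

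**Figure D2:**
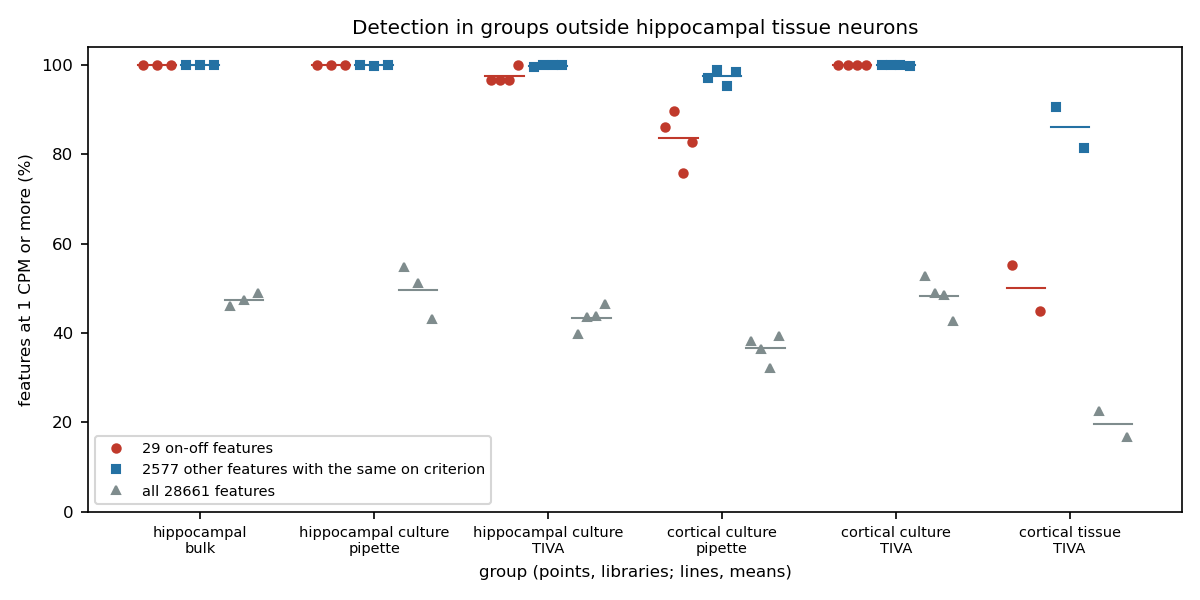
Percentage of features at 1 CPM or more (vertical axis) in each library of the 6 groups that the choice of members did not use. Points are libraries and lines are group means, for the 29 members, the 2577 other features and all 28661 features. The members lie at 100% in bulk, cultured hippocampal pipette and cultured cortical TIVA libraries, at 75.9% to 89.7% in cultured cortical pipette neurons, and at 55.2% and 44.8% in the 2 cortical tissue neurons.

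In the cortical tissue neurons, the other single cells from slices, the members were again often off. They reached 1 CPM for 55.2% and 44.8% of members in the 2 neurons (mean 50.0% ± 7.31, SD, n = 2), and the other features for 86.0% on average. Of the 29 members 9 (31.0%) were present in both neurons, against a background of 12.8% and 1967 of 2577 (76.3%) of the other features. Another 9 (31.0%) were off in both, as were 4.31% of the other features, and 11 (37.9%) were off in one, as were 19.4% of the other features. Of the 13 and 16 members off, 9 and 13 were at 0 reads, which allows up to 0.380 and 0.567 CPM. These libraries had 6487 and 4822 features at 1 CPM or more, the fewest of the series, and the part of this in the members' absence was not tested. Nor was the part of the members' lower level, which in bulk was 0.312 to 0.334 of that of the other features.

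No member was on in one cortical tissue neuron and off in the other, the background being 2.01% and the other features 6.01%. With members chosen anew the share was 11.9% of 59 with CPM outside the 50 most abundant features, 4.0% of 25 after thinning and 2.5% of 40 with TMM. It was 16.8% of 196 with an on limit of 50 CPM, which also loosens what counts as on. The share over all features is not given for these settings. The 0 was thus not kept under these settings, while counting error alone allows 0 of 29 up to 11.9% (exact binomial 95% interval). It was kept with DESeq2 size factors (13 members), with an on limit of 200 CPM (3 members) and with members chosen without any 1 neuron. On the main scale 5 members were on in 1 of the 2 neurons. The 2 highest in their lower neuron were uc009tqe.1, at 260.0 and 76.1 CPM, and uc008kes.2:uc008ket.2, at 55.4 and 245 CPM. The other three were near the off limit in the second neuron: uc007yrs.2:uc007yrt.2 at 315 and 2.64 CPM, uc009sas.1 at 222 and 2.08 CPM, and uc008czg.2:uc008czd.2:uc012avi.1:uc008czf.2 at 4.43 and 415 CPM. The last 3 were picked after their values were seen. The members' median was 2.15 and 0.567 CPM, against 102 and 43.6 CPM for the other features.

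**Figure D3:**
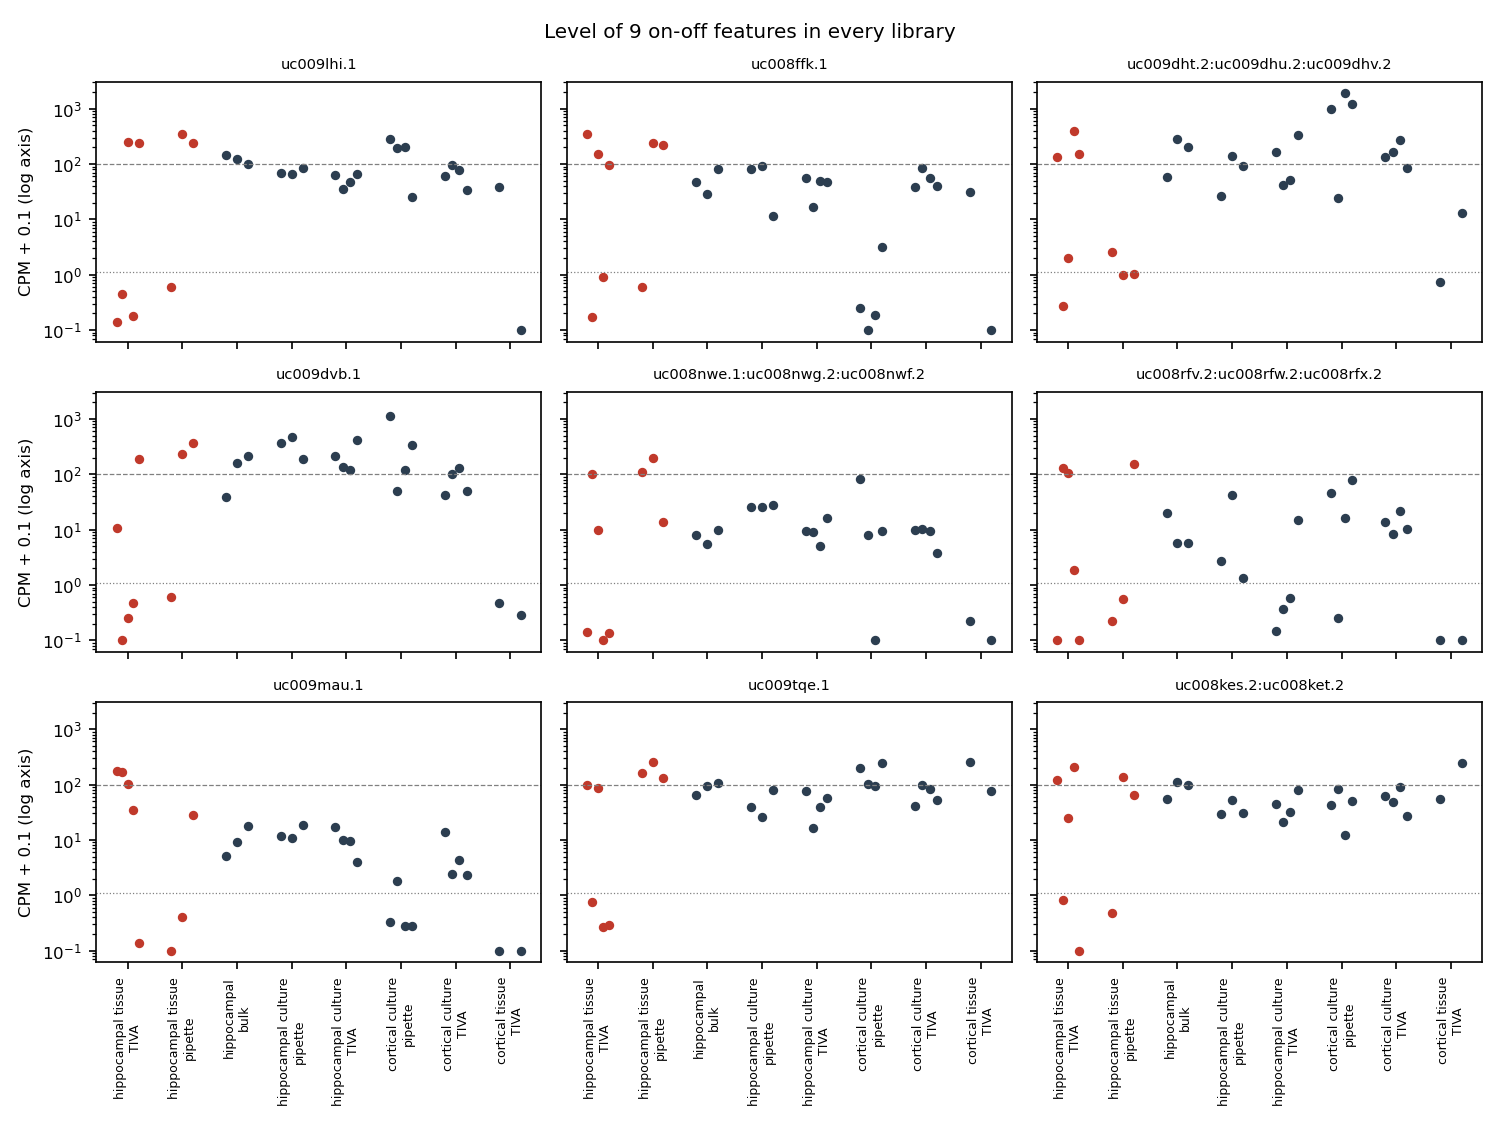
CPM + 0.1 on a log axis in every library (points), by group, for the 9 members named by rule. Hippocampal tissue neurons, which chose the members, are in red, and the dashed and dotted lines mark 100 and 1 CPM. The panel of uc009lhi.1 shows values above and below both lines in hippocampal tissue and values of 24.9 to 278 CPM, on both sides of the dashed line, in culture.

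The spread between the libraries of a group was lowest in bulk tissue and cultured hippocampal pipette neurons. The ratio of the highest to the lowest library, with 1 CPM added to each, had a median over members of 1.83 in bulk tissue and 1.82 in cultured hippocampal pipette neurons, and over the other features of 1.96 and 1.80. In the cultured TIVA neurons it was 4.32 for hippocampus and 3.14 for cortex, with 3.12 and 2.68 for the other features. It was 15.7 in the cultured cortical pipette neurons and 7.44 in the cortical tissue neurons, with 4.12 and 4.20 for the other features. In the neurons that chose the members it was 170.2 with TIVA and 103 with the pipette, with 4.89 and 3.60 for the other features, where the choice itself sets the members' ratios. Groups held 2 to 5 libraries, and such a ratio tends to grow with their number. Members at 0 reads in both cortical tissue neurons have a ratio of 1, which is absence and not an even level.

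**Figure D4:**
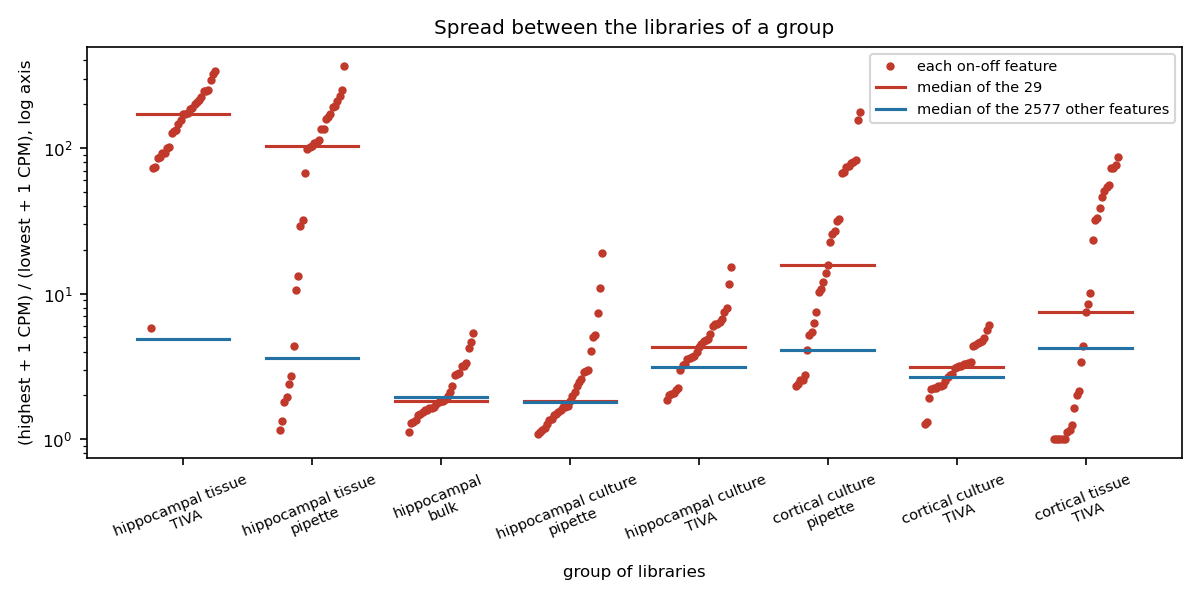
Ratio of highest to lowest library, with 1 CPM added to both, on a log axis, for each of the 29 members (points, sorted within a group). Lines are the medians of the members and of the 2577 other features. The members' median is near that of the other features in bulk (1.83 and 1.96) and above it in cultured cortical pipette neurons (15.7 and 4.12).

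Differences between groups were read on mean log2(CPM + 10), with a difference of 4-fold or more taken as the limit of size. Features were left out where the average of the 2 group means was under 5 CPM. This can leave out a feature above 5 CPM in 1 group and near 0 in the other. Cultured hippocampal pipette neurons against bulk tissue had 0 of 29 members higher (background 1.18%) and 1 lower (background 1.60%). The lower one was uc008czg.2:uc008czd.2:uc012avi.1:uc008czf.2, with a mean of 30.8 CPM in 3 neurons against 168 CPM in 3 bulk libraries, a log2 difference of -2.03, and the ranges did not overlap. Cultured hippocampal TIVA neurons against bulk had 0 members higher (background 0.0673%) and 0 lower (background 0.635%). Against the cultured pipette neurons they also had 0 higher (background 0.501%) and 0 lower (background 2.97%). These comparisons share libraries, so they are not independent of each other.

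In cultured cortical neurons, TIVA against pipette, 2 of 28 members were higher (background 1.07%) and 0 lower (background 1.66%). They were uc008ffk.1, with means of 54.6 and 0.841 CPM and a log2 difference of 2.53, and uc008czg.2:uc008czd.2:uc012avi.1:uc008czf.2, with means of 93.5 and 14.9 CPM and a difference of 2.22. Cortical tissue TIVA neurons against cultured cortical TIVA neurons had 0 of 27 members higher (background 2.88%) and 7 lower (background 13.6%, other features 15.6%). The 2 with the largest differences were uc009dht.2:uc009dhu.2:uc009dhv.2, at 0.633 and 12.8 CPM against 83.2 to 274 CPM, a log2 difference of -3.36, and uc009dvb.1, at 0.380 and 0.189 CPM against 41.9 to 131 CPM, a log2 difference of -3.03. Region and method are shared here, and tissue or culture, tag dose and laser power differ, so these cannot be told apart. With CPM taken outside the 50 most abundant features, 12 of 28 members were lower here, where 23.9% of all features were, and 4 of 29 were higher in the cultured cortical TIVA neurons than in the pipette neurons, where 3.17% of all features were.

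The median log2 difference of the members was -0.28 for cultured hippocampal pipette neurons against bulk, where the other features had 0.10, which turned to between -0.18 and -0.06 under the other 3 scalings. For cultured hippocampal TIVA neurons it was -0.47 against bulk, with -0.67 for the other features, and between -0.18 and -0.01 under the other scalings. Between the cultured hippocampal TIVA and pipette neurons it was -0.27, with -0.76 for the other features, and it turned to 0.27 to 0.35 under the other 3 scalings tried, which moved the median of all features from -0.46 to between 0.08 and 0.15, so its direction rests on the scaling. It was 0.27 in the cultured cortical neurons, with -0.38 for the other features, and -1.22 in cortical tissue against cultured TIVA neurons, with -0.48. The members' difference kept its sign under the 3 other scalings in these last cases, from 0.25 to 0.68 and from -1.69 to -1.05. That of the other features did not, with -0.26 to 0.12 in the cultured cortical neurons and -0.81 to 0.14 in the cortical tissue comparison.

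Besides levels, the only properties of the members looked at were the number of joined identifiers and the row order. A name joined 3 identifiers at the median and 7 at most, against a median of 2 in the other features and 1 in all features, and 62.1% of members, 66.9% of the other features and 41.8% of all features joined more than 1. The nearest members were 42 rows apart in the order of the deposited tables, so no neighbouring rows were both members. Counts of overlapping features, and of near-identical copies, may share reads, and which members this touches was not tested.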

How the data were processed

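The authors deposited 1 table of raw counts per library, whole-number reads per feature, for 28 libraries and 28661 features named by UCSC known-gene identifiers. The submitters' processing notes name CASAVA 1.8.1, HTSeq and the mm9 build. Aligner, overlap mode and strand setting: not given in the sources used here. Overlapping, antisense or near-identical features may therefore share reads. Each file ends in 5 summary lines without a gene, which entered no library size, and the no-feature line held 15.8% to 39.2% of counted reads in the 8 hippocampal tissue neurons. It held 19.9% to 75.3% in cultured hippocampal neurons and 43.4% to 81.1% in cultured cortical neurons. In bulk it held 21.1% to 30.5%, and in the cortical tissue neurons 18.8% and 17.6%. The part of this in the differences between groups was not tested. CPM was computed over all assigned reads. Assigned reads ranged from 5.30 to 59.0 M.

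Libraries were grouped by source name, and replicate numbers follow record order and pair nothing. Members were features at 100 CPM or more in at least 3 and below 1 CPM in at least 3 others of the 8 neurons. The members and lists were chosen with earlier results of these data known. By rule, named members join at most 3 identifiers and are the extremes of mean level in tissue, bulk, culture and cortical tissue, those that divide by method, and those nearest the limits. Members named outside the rule, among them all with more than 3 identifiers, were picked after their values were seen. No test was run, since each neuron is 1 cell. Differences used log2(CPM + 10), which understates the change of low features.

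Alternatives were on limits of 50 and 200 CPM, off as 0 reads, CPM outside the 50 most abundant features, TMM (edgeR 4.0.16), DESeq2 1.42.0 size factors, thinning to the smallest library, a filter of 10 reads and leaving out each library. The working of the selection was checked on simulated counts with features planted well past both limits. Apart from these, the simulated cells differed by counting error only. The check therefore says nothing about features near the limits or about amplified single-cell counts. Python 3.11.15, numpy 2.4.6, pandas 2.3.3 and R 4.3.3 were used. Scalings of the group differences were added after seeing the data.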

Additional observations from a re-analysis of the deposited data

Results flagged for a closer look

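In 51 sets of 4 or 5 libraries, made from the named members and the counts of members off, 8 held a value far from the rest of its group, by the gap to the nearest value over the whole range (Dixon's 95% limit). For normally spread values chance flags about 1 in 20 such sets, and these sets are skewed and share features and cells. Among the 5 hippocampal tissue TIVA neurons, which chose the members, the highest value stood apart for uc009dvb.1 (188 CPM) and uc008nwe.1:uc008nwg.2:uc008nwf.2 (101 CPM). Among the 4 cultured hippocampal TIVA neurons, neuron 4 had 0 members off where the others had 1 each, and uc008rfv.2:uc008rfw.2:uc008rfx.2 stood at 15.0 CPM in that neuron. Both values describe the same feature in the same cell. Among the 4 cultured cortical pipette neurons the highest value stood apart for uc008ffk.1 (3.12 CPM), uc008nwe.1:uc008nwg.2:uc008nwf.2 (81.2 CPM) and uc009mau.1 (1.71 CPM), in 3 different neurons. Among the 4 cultured cortical TIVA neurons the lowest value of uc008nwe.1:uc008nwg.2:uc008nwf.2 (3.76 CPM) stood apart. No explanation was tested for any of these.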

How the results depend on the processing

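No paired analysis was possible because no result comes from a test and the replicate numbers only follow record order. The number of members, 29, became 196 with an on limit of 50 CPM, 3 with 200 CPM, 0 with off as 0 reads, 59 with CPM outside the 50 most abundant features and 13 with DESeq2 size factors. It was 40 with TMM, 25 after thinning and 29 with the low-count filter, and 6 to 17 without one neuron. The main 29 shared 24 features with the 59, 11 with the 13, 25 with the 40 and 22 with the 25. The cause was not tested, apart from looser or stricter limits taking more or fewer features by construction.

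The share of members at 1 CPM or more moved as follows. With an on limit of 50 CPM it was 99.8% in bulk, 97.1% in hippocampal culture pipette, 95.0% in hippocampal culture TIVA, 97.3% in cortical culture TIVA and 41.1% in cortical tissue, where 16.8% of members were then on-off. With 200 CPM it was 100% in hippocampal culture TIVA, 75.0% in cortical culture pipette, where 0% were on-off, and 66.7% in cortical tissue. Outside the 50 most abundant features it was 97.2% in hippocampal culture pipette and 98.3% in cortical culture TIVA. With TMM it was 97.5% in each of these and 95.6% in hippocampal culture TIVA. With DESeq2 size factors it was 100% in hippocampal culture TIVA, 98.1% in cortical culture TIVA and 57.7% in cortical tissue. After thinning it was 98.7% in hippocampal culture pipette.

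With members chosen without one neuron, the share was 87.5% to 100% in hippocampal culture TIVA (90.6% without TIVA neuron 4 or pipette neuron 2, 93.2% without pipette neuron 1), 75.0% to 88.6% in cortical culture pipette, with 6.67% to 27.3% on-off, and 25.0% to 52.9% in cortical tissue (33.3% without TIVA neuron 2, 41.7% without TIVA neuron 5). Without one library of the group itself it was 96.6% to 97.7%, 81.6% to 86.2%, with 3.45% to 10.3% on-off, and 44.8% to 55.2%. Under both kinds of omission it stayed at 100% in the other 3 groups, with 0% on-off. Depth limits cortical tissue neuron 2 most, where 3 reads are worth 0.567 CPM, and the number of cells per group, 2 to 5, limits every comparison.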
